A study of Mus musculus with 6 samples.

Results

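The genes described here are 38 genes of mitosis, the kinetochore and cytokinesis, taken by symbol from 26458 symbols in the read count reports. All 38 were listed, Cdk1 under its older symbol Cdc2a and Dlgap5 as Dlg7. The set was named by function and not by measured values, although results of these data were known when it was drawn up. The RNA came from Thy1+HE- cells sorted from hearts of C57BL/6 mice at 7 days after surgery, with 3 libraries from sham-operated and 3 from TAC-operated hearts. TAC (transaortic constriction) narrows the aorta and loads the left ventricle with pressure, and sham animals had the operation without it. Thy1 is a surface protein of many cardiac fibroblasts, and what HE stands for is not spelled out in the labels. Animal age, and whether a library held 1 heart or a pool, are not given in the sources used here, so each p-value speaks of the spread among libraries only, part of which may be technical.

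Dividing cells make most proteins of this set in late S, G2 and M phase and degrade many of them as mitosis ends, so their transcripts mark cells in or near division. Cyclins A and B with Cdk1 drive entry into mitosis, kinetochores tie chromosomes to the spindle, and the spindle checkpoint holds anaphase until all are attached. Anillin, Ect2 and the centralspindlin subunit Racgap1 then organise the contractile ring. Fibroblasts of the healthy adult heart divide rarely, and their proliferation is a known feature of the first weeks of pressure overload.

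Counts on gene rows summed to between 1909337 and 2056097 per library in sham and between 3351479 and 4207312 in TAC. The limit set by a count of 0, taken as 3 counts and covering counting error only, lay between 0.699 and 1.55 CPM in the 6 libraries, where CPM divides a count by its library's TMM size from edgeR. The marker of the sort, Thy1, was at 123 to 145 CPM in sham and 153 to 207 CPM in TAC. The fibroblast gene Col1a1 was at 1371 to 3048 CPM in sham and 5273 to 6374 in TAC, and Pdgfra at 920.2 to 971.3 and 531.1 to 574.3 CPM. The endothelial gene Pecam1 was at 7.01 to 18.3 CPM in any library. The 13 endothelial markers together summed to 243.8 to 337.3 CPM in sham and 249.4 to 284.8 CPM in TAC. Of these, 8 were tested, 2 were called higher and 2 lower. Of 18 macrophage and leukocyte markers 10 were tested and 6 were higher in TAC, and the pan-leukocyte gene Ptprc was at 0 counts throughout sham and at 7, 9 and 17 counts in TAC. Of 11 lymphocyte markers, 9 had 0 counts in every sham library and none was tested. Pericyte markers summed to 3054 to 4565 CPM in sham and 1310 to 2615 CPM in TAC, with 3 of 12 called lower, and Schwann cell markers to 132 to 166 and 53.5 to 71.7 CPM, with 5 of 6 tested called lower. Early-response genes known to rise with cell handling summed to 15053 to 15605 CPM in sham and 8224 to 8918 CPM in TAC, and 10 of 15 tested were called lower. The share of matched reads that lay on genes was 25.4 to 34.1% in sham and 38.7 to 43.2% in TAC. The part of these differences in the results was not tested. In these bulk samples, a larger share of dividing cells and more RNA of these genes per dividing cell cannot be told apart.

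The mitosis genes were higher after TAC almost without exception. Added together, the 38 genes reached 674, 816 and 877 CPM in the TAC libraries and 111, 124 and 218 CPM in the sham libraries. The TAC mean was 5.22 times the sham mean. Dlg7, described below, made up 20.9 to 34.3% of the sham sums and 2.67 to 5.78% of the TAC sums. Without Dlg7 the TAC mean was 6.80 times the sham mean. The groups did not overlap for 36 of the 38 genes, each with all TAC libraries above all sham libraries, while 13.5% of the 20841 symbols with a count behaved so. The exceptions were Dlg7 and Melk, a kinase whose transcript had 0 counts in TAC replicate 1. Ratios of the summed scaled counts ranged from 2.73 for Melk to 22.4 for Ckap2l in the 37 genes other than Dlg7, with a median over the whole set of 6.26. For those 37 genes the 95% exact interval of the ratio, which covers counting error only, lay above 1.

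**Figure D1:**
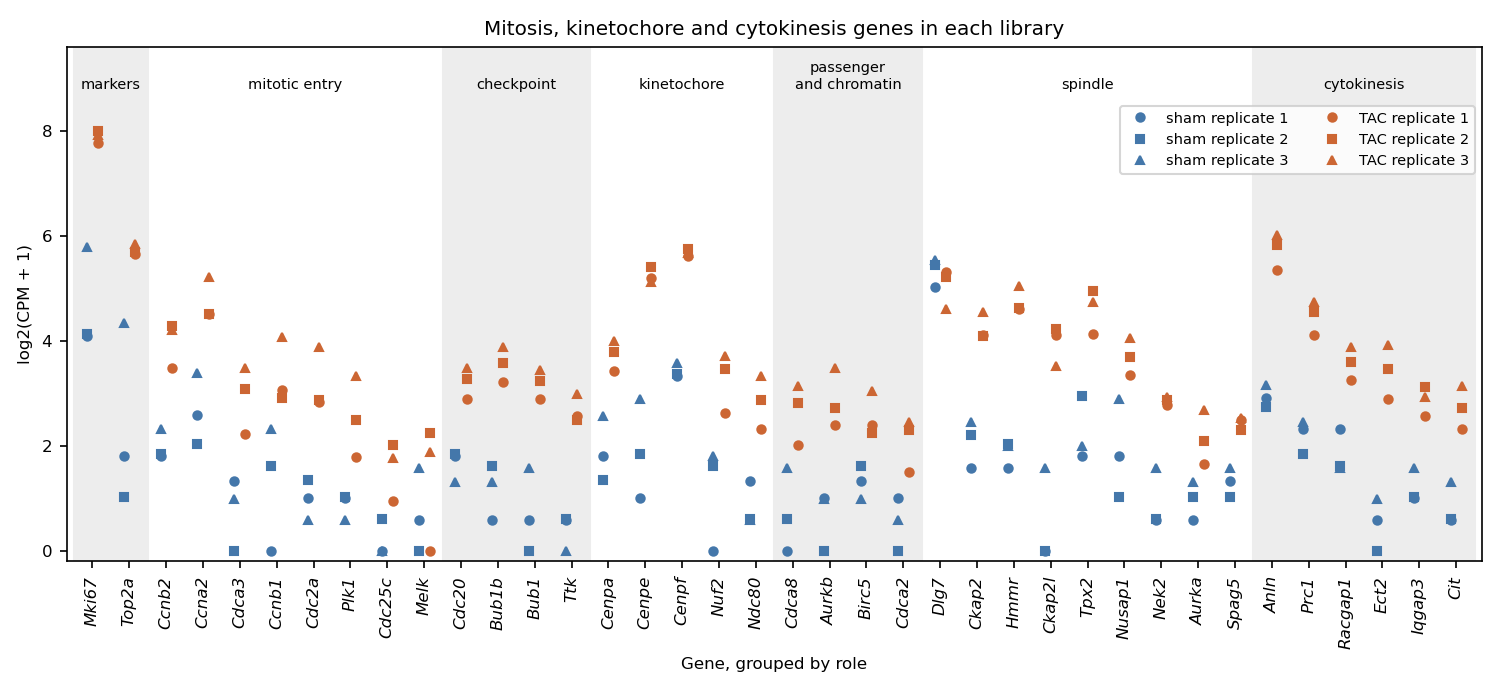
Level of each gene in each library, as log2(CPM + 1) on the vertical axis, with genes on the horizontal axis grouped by role. Blue symbols are the 3 sham libraries and orange symbols the 3 TAC libraries, and the groups overlap for Dlg7 and Melk and for no other gene.

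With edgeR's quasi-likelihood test over 12612 genes, 31 of the 38 were abundant enough to test and 30 of these were called higher at an adjusted p under 0.05; none was called lower. In all, 8.28% of tested genes were called higher and 10.4% lower. The first share was 4.21% without sham replicate 2 and 5.03% without sham replicate 3. In those fits 29 and 30 of the mitosis genes were called higher, of 36 tested in each. The median log2 fold change of the 31 was 2.57, and that of all tested genes 0.01. A log2 fold change of at least 2 with a call was found in 26 of the 31, and in 1.09% of all tested genes. These counts lean on the filter for low counts, because 27 of the 31 passed it in TAC only, and a gene that is kept through its high group tends to differ. Of 832 genes that passed it in TAC only, 25% were called higher, against 27 of those 27 mitosis genes. The 4 that passed it in sham were Mki67, Anln, Cenpf and Dlg7, and all but Dlg7 were called higher, with 7.44% of the 11205 genes of that kind called higher. With no filter, 36 of the 38 were called higher, against 7.58% of 20841 genes, although the p-values of that fit are implausibly small and are not relied on. After thinning every library to the smallest, 21 could be tested and 20 of them were called higher, against 8.17% of 11602 genes.

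The 7 genes below the filter were Plk1, Melk, Aurka, Cdc25c, Cdca2, Cdca3 and Cdca8, and they have no test. Plk1, the polo-like kinase of mitotic entry, had 2, 2 and 1 counts in sham and 8, 20 and 30 in TAC. Cdca3, which promotes degradation of the mitotic inhibitor Wee1, had 3, 0 and 2 counts in sham and 12, 32 and 34 in TAC. For Cdc25c, the phosphatase that switches on Cdk1, there were 0, 1 and 0 counts in sham and 3, 13 and 8 in TAC, a ratio of 13.1 with an interval of 2.14 to 539. Melk, a kinase of the same role, had a ratio of 2.73 with an interval of 1.03 to 9.14. All 7 but Melk had each TAC library above each sham library in CPM.

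**Figure D2:**
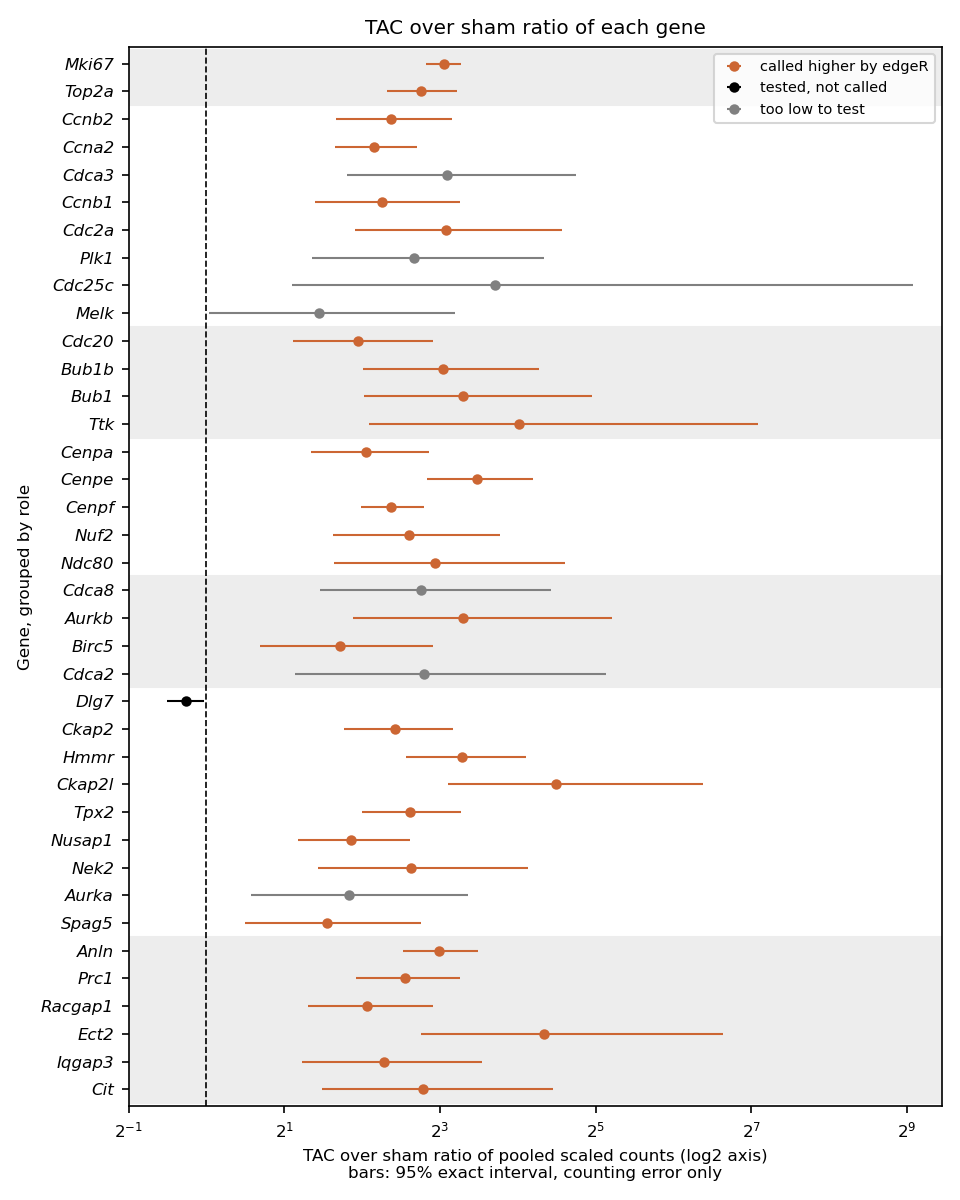
TAC over sham ratio of the summed scaled counts of each gene, on a log2 axis, with genes in rows by role and bars for the 95% exact interval of counting error. Orange points were called higher by edgeR, grey points were too low to test, and Dlg7, in black, is the only point left of 1.

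Promoters were examined because these genes moved together. Mitotic promoters are known for 2 short elements, the CCAAT box bound by NF-Y and the cell cycle homology region (CHR), bound by the MuvB complex with B-Myb and FoxM1 in dividing cells and by the DREAM complex in resting cells. RefSeq promoter windows of GRCm38.p6, which span 250 bases before and 50 after the gene start, matched 32 of the 38 genes. CCAAT on either strand lay in the 250 bases before the start in 24 of 32 (75%), and in 34.5% of 27025 promoters of all genes and 36.1% of 6442 promoters of tested genes. Many of the 12612 tested genes had no matched window. At least 2 such boxes were found in 16 of the 32 (50%), and in 10.5% of all promoters. The CHR was searched as TTTGAA or TTCGAA on either strand, and the second word reads the same on both strands. It lay wholly within the 250 bases before the start in 10 of 32 (31.2%), against 17.4% of all promoters, and within the whole window of 300 bases, a width added after the first search, in 24 of 32 (75%), against 19.4% of all and 13.3% of tested genes' promoters. Both elements stood together in that window in 21 of 32 (65.6%), and in 7.7% of all promoters. In 523 promoters of genes called higher in TAC, some of them members of the set, CCAAT lay before the start in 41.1%. The CHR lay in the whole window in 17.0% of these 523, and both elements in 11.1%. Neither element was found before the start in 7 of 32: Anln, Birc5, Cit, Melk, Ndc80, Nuf2 and Nusap1. Base composition differs between these sets, with a median GC content of 58.4% in the 32 windows before the start, 52% in all promoters and 60.8% in those of tested genes, and its part in these shares was not tested.

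Shown here are the last 150 bases before the start of 6 genes that hold a CCAAT box together with a CHR, or several CCAAT boxes, written along the gene's strand from 5′ to 3′ with both words in capitals (ATTGG is CCAAT and TTCAAA is TTTGAA read on the other strand).
Cdk1, chr10:69352913-69353062, minus strand: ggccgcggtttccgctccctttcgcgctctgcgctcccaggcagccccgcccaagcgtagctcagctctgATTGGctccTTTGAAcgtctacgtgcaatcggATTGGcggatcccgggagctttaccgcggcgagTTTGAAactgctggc
Cdc20, chr4:118437344-118437493, minus strand: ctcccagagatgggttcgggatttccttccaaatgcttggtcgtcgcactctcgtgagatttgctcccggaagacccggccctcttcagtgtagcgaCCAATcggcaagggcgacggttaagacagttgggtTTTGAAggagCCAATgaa
Ckap2l, chr2:129297213-129297362, minus strand: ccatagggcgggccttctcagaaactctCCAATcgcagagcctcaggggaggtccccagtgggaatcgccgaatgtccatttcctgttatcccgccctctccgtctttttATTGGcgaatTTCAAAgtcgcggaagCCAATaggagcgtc
Top2a, chr11:99024190-99024339, minus strand: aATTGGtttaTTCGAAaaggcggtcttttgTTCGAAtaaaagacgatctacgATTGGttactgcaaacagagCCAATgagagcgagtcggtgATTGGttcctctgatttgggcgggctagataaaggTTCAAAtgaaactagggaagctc
Mki67, chr7:135716380-135716529, minus strand: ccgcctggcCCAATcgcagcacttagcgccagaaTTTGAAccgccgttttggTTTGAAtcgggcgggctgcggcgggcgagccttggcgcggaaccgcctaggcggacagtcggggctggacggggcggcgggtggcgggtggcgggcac
Hmmr, chr11:40733438-40733587, minus strand: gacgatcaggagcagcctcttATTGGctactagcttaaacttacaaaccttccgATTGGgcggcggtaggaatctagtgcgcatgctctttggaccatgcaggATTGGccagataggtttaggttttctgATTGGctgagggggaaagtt
In Cdk1 a CCAAT box begins 48 bases and a CHR 15 bases before the start, and in Cdc20 the CHR begins 18 bases before it. Top2a has 6 CCAAT boxes and 4 CHR words in its 250 bases, and Hmmr has 5 CCAAT boxes and no CHR before its start.

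In 14 of the 24 genes with a CHR, the word nearest to the start began at or after it. Short stretches of 24 bases around the nearest word show it in genes of different roles, with the CHR in capitals. It begins after the start in each of these but Prc1, where it begins 5 bases before.
Ccnb2, chr9:70421537-70421560, minus strand: cggcgcggtaTTTGAAtcgcggac
Cenpf, chr1:189688071-189688094, minus strand: cggcgggcagTTTGAAtcgctcgt
Racgap1, chr15:99651638-99651661, minus strand: ggtgcgtgatTTTGAAccggatct
Hmmr, chr11:40733416-40733439, minus strand: ttgaggtaaaTTTGAAttcaggcg
Bub1, chr2:127831832-127831855, minus strand: gcgcggggaaTTCGAAtcgccggc
Cenpa, chr5:30666892-30666915, plus strand: cgggtgatttTTTGAActgctggc
Plk1, chr7:122159455-122159478, plus strand: cagcgccgcgTTTGAAttcgggga
Spag5, chr11:78301584-78301607, plus strand: gcgtattgggTTCAAAtagaggcg
Prc1, chr7:80294436-80294459, plus strand: tctggctcggTTTGAAttccgcgg
The word was TTTGAA on the gene's strand in 15 of the 24, TTCAAA in 7 and TTCGAA in 2. A match of letters is a description of the sequence and shows no binding.

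Both general markers of cycling cells rose. Mki67 (chromosome 7, 135689784 to 135716450 in GRCm38), whose protein coats mitotic chromosomes, reached 217, 256 and 243 CPM in TAC replicates 1, 2 and 3, against 16.02, 16.6 and 54.1 CPM in sham. The TAC libraries all lay far above the sham libraries, and sham replicate 3 stood above the other sham libraries. Its log2 fold change was 3.04 ± 0.30 (standard error, SE), at an adjusted p of 3.14e-06 by edgeR. Top2a (chromosome 11, 98992947 to 99024199), the topoisomerase that untangles sister chromatids, was at 49.4, 51.0 and 56.5 CPM in TAC and at 2.50, 1.04 and 19.3 CPM in sham, where replicate 3 held 39 of the 46 counts. Its log2 fold change was 2.75 ± 0.45 (SE) with an edgeR adjusted p of 0.000430, and the call was lost with DESeq2 (adjusted p of 0.0627). Without sham replicate 3 the log2 fold change was 4.84. Mki67 made up 27.7 to 32.2% of the summed CPM of the set in TAC libraries and 13.4 to 24.8% in sham.

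Genes of mitotic entry rose as far as they could be tested, 4 of 8. Ccna2, cyclin A2, was at 5.01, 3.11 and 9.43 CPM in sham and 21.8, 21.9 and 36.4 CPM in TAC, a log2 difference of 2.17 ± 0.34 (SE). Ccnb2, a cyclin B, went from 2.50, 2.59 and 3.97 CPM to 10.1, 18.4 and 17.4 CPM (2.33 ± 0.37), and the groups were well apart. Ccnb1, the main mitotic cyclin, was listed at 0, 2.07 and 3.97 CPM in sham and at 7.36, 6.52 and 15.9 CPM in TAC, with the highest level in TAC replicate 3. Its call (2.26 ± 0.59, adjusted p by edgeR 0.0134) rests on 12 sham counts and was lost without sham replicate 1 (adjusted p of 0.0505), sham replicate 2 (0.0555) or TAC replicate 3 (0.0546), and with limma on log2(RPKM + 0.1) (0.0539). Cdc2a, the kinase Cdk1 itself, had 2, 3 and 1 counts in sham and 20, 27 and 46 in TAC, and a log2 fold change of 3.05 ± 0.56 with an edgeR adjusted p of 0.00122. Among the untested members, Plk1, Cdca3 and Cdc25c lay higher in every TAC library, whereas Melk, at 0.501, 0 and 1.98 CPM in sham and 0, 3.73 and 2.71 CPM in TAC, overlapped.

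All 4 genes of the spindle checkpoint rose. Bub1b, which encodes the checkpoint kinase BubR1, was at 0.501, 2.07 and 1.49 CPM in sham and 8.28, 10.9 and 13.8 CPM in TAC, a log2 difference of 2.99 ± 0.46 (SE; edgeR adjusted p of 0.000252). Bub1 went from 0.501, 0 and 1.98 CPM to 6.44, 8.38 and 9.92 CPM. Ttk, the kinase Mps1 that starts the checkpoint signal, had 1, 1 and 0 counts in sham and 16, 20 and 23 in TAC, a ratio of 16.1 with an interval of 4.27 to 136. Cdc20, the activator of the anaphase-promoting complex that the checkpoint restrains, had the lowest ratio of the 4, and went from 2.50, 2.59 and 1.49 CPM to 6.44, 8.61 and 10.2 CPM (log2 fold change of 1.93 ± 0.41). Its interval of the ratio, 2.15 to 7.53, overlapped those of the other 3, and the order among the 4 is not resolved.

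All 5 centromere and kinetochore genes rose as well. Cenpf (chromosome 1, 189640606 to 189688107), a large protein of the outer kinetochore, was among the most even members, at 9.01, 9.32 and 10.9 CPM in sham and 47.9, 53.1 and 50.2 CPM in TAC (2.36 ± 0.20, adjusted p by edgeR 6.28e-07). Cenpe, the kinetochore motor that brings chromosomes to the spindle equator, was at 1.00, 2.59 and 6.45 CPM in sham and 35.6, 41.4 and 34.0 CPM in TAC (3.45 ± 0.34). Cenpa, the histone H3 variant that defines the centromere, went from 2.50, 1.55 and 4.96 CPM to 9.82, 12.8 and 15.04 CPM. Ndc80 and Nuf2 pair in the complex that grips microtubules. Ndc80 had 3, 1 and 1 counts in sham and 13, 27 and 30 in TAC, and Nuf2 had 0, 4 and 5 and then 17, 43 and 40. Both calls therefore rest on under 10 sham counts, with log2 fold changes of 2.87 ± 0.57 and 2.56 ± 0.57.

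The chromosomal passenger complex corrects faulty attachments and later marks the cleavage site. Its kinase Aurkb had 2, 0 and 2 counts in sham and 14, 24 and 34 in TAC (3.23 ± 0.65, adjusted p by edgeR 0.00242). Birc5, which encodes survivin, had 3, 4 and 2 counts in sham and 14, 16 and 24 in TAC, and the smallest rise among the tested genes of this role (1.70 ± 0.50, adjusted p of 0.0263 by edgeR). That call was lost without any 1 of the sham libraries, with adjusted p of 0.0609 to 0.122, and with TAC libraries left out it was too low to test. The call was also lost with DESeq2 (0.0836) and limma voom (0.0618). Cdca8, the subunit borealin, had 0, 1 and 4 counts in sham and 10, 26 and 26 in TAC. Cdca2, which recruits a phosphatase to chromosomes at mitotic exit, had 2, 0 and 1 counts and then 6, 17 and 15.

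Of the 9 spindle genes 8 were tested, 7 rose, and Dlg7 was not called. Hmmr, a spindle and hyaluronan-binding protein, was at 2.003, 3.11 and 2.98 CPM in sham and 23.3, 23.7 and 32.2 CPM in TAC, a log2 difference of 3.27 ± 0.31 (SE; edgeR adjusted p of 2.18e-06). Tpx2, which activates Aurora A on the spindle, went from 2.50, 6.73 and 2.98 CPM to 16.6, 29.8 and 25.9 CPM (2.57 ± 0.35). Ckap2, a microtubule-associated protein, went from 2.003, 3.63 and 4.46 CPM to 16.3, 16.1 and 22.6 CPM. Its relative Ckap2l had 0, 0 and 4 counts in sham and 53, 76 and 35 in TAC, so its log2 fold change of 4.38 ± 0.60, the highest of the set, is imprecise, and its ratio of 22.4 had an interval of 8.58 to 83.2. Nusap1 and Nek2, a bundling protein and a centrosome kinase, had log2 fold changes of 1.85 ± 0.44 and 2.58 ± 0.52. Spag5, a spindle protein with 9 sham counts, had the smallest called change (1.52 ± 0.47, adjusted p of 0.0320 by edgeR), and the call was lost without any 1 sham library (adjusted p of 0.0730 to 0.143), with DESeq2 (0.136) and with limma voom (0.0604). With a TAC library left out it was too low to test. Aurka, the Aurora A kinase, had 1, 2 and 3 counts in sham and 7, 14 and 18 in TAC.

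Dlg7 (Dlgap5, chromosome 14, 47387779 to 47418407), a protein that stabilises spindle fibres, went against the rest by its total count. It had 63, 82 and 92 counts in sham and 127, 155 and 78 in TAC, or 39.9 ± 7.396 and 32.8 ± 8.25 CPM (SD, n = 3), and a log2 fold change of -0.28 ± 0.21 with an edgeR adjusted p of 0.387. The ratio of its scaled counts was 0.830, with a counting interval of 0.702 to 0.982. The deposited reports also give the highest read depth at any base of a gene in each library, without its position, so whether the peak is the same base in all libraries is not known. For Dlg7 this depth was 62, 81 and 92 reads in sham and 112, 118 and 46 in TAC, so that 85.6% of all its reads lay over the most covered base of their library, and 94.0% of its reads were on the forward strand. Reads that did not cover the most covered base of their own library numbered 1, 1 and 0 in sham and 15, 37 and 32 in TAC, a ratio of 22.9 with an interval of 6.16 to 193. In the 20 other members with at least 100 reads in all, the share over the most covered base was 2.44 to 19.0% and the forward share 40.6 to 62.3%. Among 11090 tested genes with at least 100 reads the median share was 11.9%, and 133 genes (1.2%) had a share as high as Dlg7. What the reads at these bases are was not tested, and this count was chosen after the values of Dlg7 were seen.

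**Figure D3:**
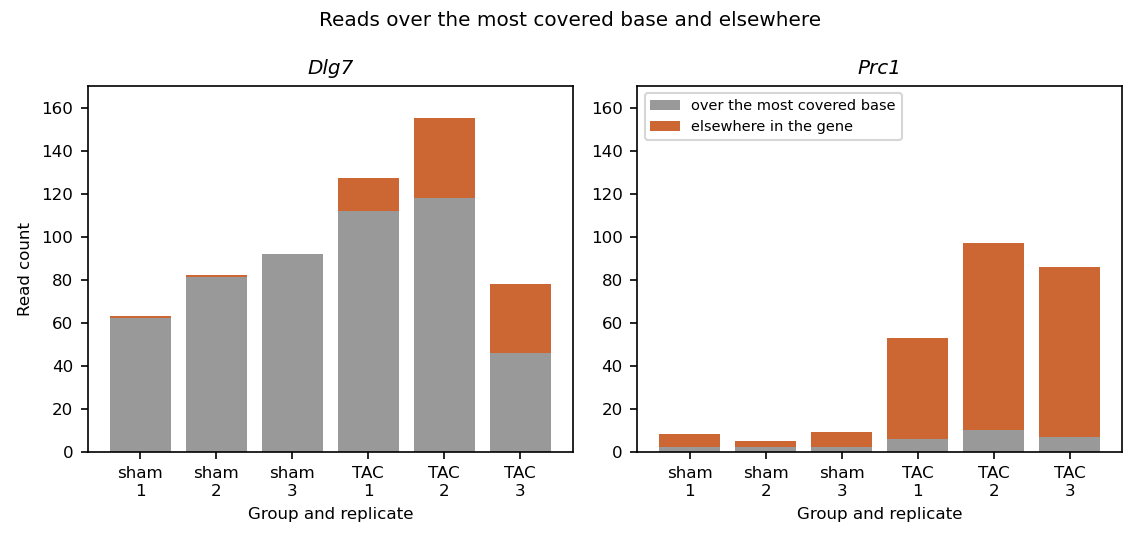
Read counts of Dlg7 and, for comparison, of Prc1 in each library, split into reads over the gene's most covered base in that library (grey) and reads elsewhere (orange). In Dlg7 nearly all sham reads are grey, and reads elsewhere number 0 or 1 in sham and 15 to 37 in TAC.

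All 6 genes of cytokinesis rose. Anln (chromosome 9, 22331214 to 22389211), the ring scaffold anillin, was at 6.51, 5.70 and 7.94 CPM in sham and 39.9, 56.1 and 63.4 CPM in TAC, a log2 difference of 2.98 ± 0.25 (SE; edgeR adjusted p of 6.28e-07). Prc1, which bundles microtubules of the central spindle, went from 4.01, 2.59 and 4.46 CPM to 16.3, 22.6 and 25.9 CPM (2.53 ± 0.32). Racgap1, a subunit of centralspindlin, went from 4.01, 2.07 and 1.98 CPM to 8.59, 11.2 and 13.8 CPM (2.04 ± 0.39). Its partner Ect2, which activates RhoA at the cleavage site, had 1, 0 and 2 counts in sham and 21, 43 and 47 in TAC, a ratio of 20.2 with an interval of 6.74 to 99.5. Iqgap3, a scaffold, and Cit, citron kinase, were the lowest of the 6 in RPKM in TAC and had log2 fold changes of 2.23 ± 0.47 and 2.72 ± 0.56.

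Levels of different genes were compared on the deposited RPKM values (reads per kilobase of gene). Their size showed scaling close to each library's sum of counts on genes, and not to its matched reads. In TAC, Mki67 was highest at 23.7 ± 2.69 RPKM (SD, n = 3), followed by Anln at 11.6 ± 2.86, Top2a at 11.2 ± 0.956, Dlg7 at 11.1 ± 2.72, Ccnb2 at 10.02 ± 3.20, Ccna2 at 9.71 ± 3.09 and Cenpa at 9.43 ± 2.13 RPKM. The lowest were Melk at 0.751 ± 0.679, Cit at 0.845 ± 0.289 and Cdc25c at 1.10 ± 0.588 RPKM. Of the 37 pairs of neighbours in this order, only 1, Mki67 and Anln, did not overlap between libraries. In sham, Dlg7 led at 13.6 ± 2.73 RPKM, and in both groups its RPKM includes the reads over its most covered base. Next by mean came Mki67, at 1.56, 1.68 and 5.40 RPKM in sham replicates 1, 2 and 3, and Cenpa, at 1.84, 1.19 and 3.75 RPKM. Both were highest in replicate 3 and they overlapped, so their order in sham is not resolved.

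Sham libraries were not alike in this set. Replicate 3 was highest of the 3 sham libraries in 24 of the 38 genes, while any 1 sham library was highest in 31.8 to 34.5% of tested genes. Mki67 and Top2a together summed to 18.5, 17.6 and 73.4 CPM in sham replicates 1, 2 and 3, and the 35 genes other than these and Dlg7 to 61.1, 63.7 and 99.2 CPM. Sham replicate 3 also had the highest summed smooth muscle markers (548, 634 and 1406 CPM in replicates 1, 2 and 3) and pericyte markers (3444, 3054 and 4565 CPM). It was the highest sham library as well for cardiomyocyte (227, 420 and 561 CPM), endothelial, epicardial, Schwann cell and erythroid markers. For leukocyte, lymphocyte and fibroblast markers it was not. Its share of matched reads on genes, 25.4%, was the lowest. The part of these differences in the result was not tested. Without sham replicate 3 the summed TAC level was 6.72 times that of sham, or 9.40 times with Dlg7 left out. In that fit 30 of 36 tested genes of the set were called higher, beside 5.03% of all tested genes. Removal of sham replicate 3 raised some single log2 fold changes, to 3.86 for Mki67, 4.80 for Bub1, 4.34 for Cenpe, 5.10 for Ect2, 3.51 for Nek2, 3.40 for Cit, 3.21 for Ccnb1 and 2.75 for Nusap1. The same removal lowered others, such as Cdc2a to 2.72, Cdc20 to 1.71 and Birc5 to 1.47. Ckap2l then had 0 counts in both sham libraries left. Ndc80 moved to 3.55 without sham replicate 1.

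Within TAC, replicate 1 was lowest in 30 of the 38 genes and replicate 3 highest in 28. Among tested genes, 33.2% were lowest in replicate 1 and 39.1% highest in replicate 3. The same 35 genes reached 369, 473 and 554 CPM in total in these libraries, whereas Mki67 and Top2a together were at 267, 307 and 300 CPM. Summed macrophage and leukocyte markers were at 120, 123 and 367 CPM in TAC and at 102, 29.5 and 38.2 CPM in sham. Cardiomyocyte markers were also highest in TAC replicate 3, at 364, 316 and 656 CPM in TAC replicates 1, 2 and 3. The part of these cells in the result was not tested. Without TAC replicate 3 the summed level in TAC was 4.93 times that of sham, or 6.37 times with Dlg7 left out. In that fit 22 of 24 tested genes of the set were called higher, beside 7.08% of all tested genes.

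**Figure D4:**
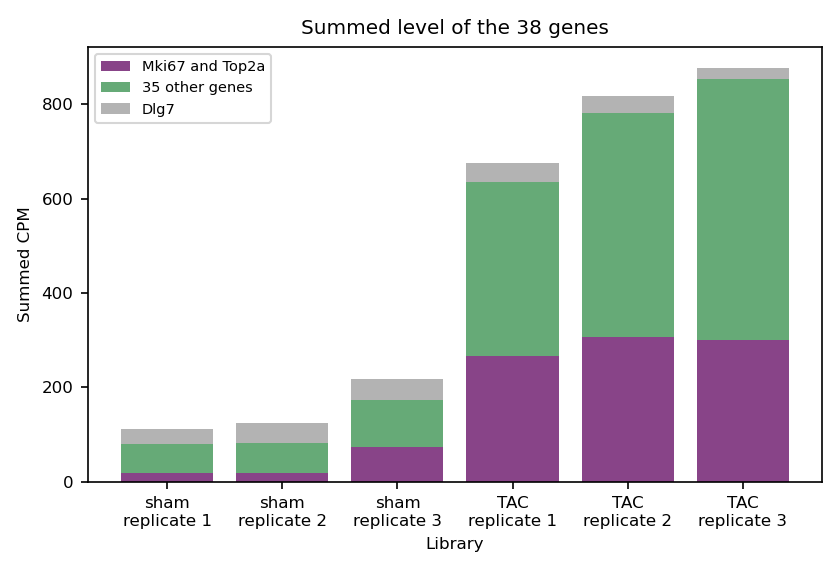
Summed CPM of the set in each library, stacked as Mki67 and Top2a (purple), 35 other genes (green) and Dlg7 (grey). Sham libraries total 111 to 218 CPM, with replicate 3 the highest, and TAC libraries 674 to 877 CPM.

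The other genes of mitosis were read from 9 lists of partners, regulators and structural proteins. Of 171 listed genes 130 were tested, 26 were called higher and 8 lower, beside 8.28% and 10.4% of all tested genes, with a median log2 fold change of 0.18. Without sham replicate 2, sham replicate 3 or TAC replicate 2, 5 were called lower. Changes in these lists are given as log2 fold changes with their SE, all called by edgeR. The limit set by the filter holds here too, since 25% of genes that passed it in TAC only were called higher. How many listed genes passed it in that way was not counted. Several calls rest on few sham counts, with 1, 0 and 2 for Gtse1 and 2, 2 and 2 for Kntc1. Psrc1 had 1, 4 and 4 sham counts and Espl1 5, 1 and 4, so such fold changes are imprecise.

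Foxm1, the transcription factor that drives many mitotic promoters in dividing cells, was the only 1 of 18 tested regulators that was called, a share near that of all tested genes. Of the 24 regulators listed, Mybl2 (B-Myb), Myb, Lin9, E2f1, E2f2 and E2f8 were too low to test. Foxm1 was at 4.51, 7.25 and 4.96 CPM in sham and 19.6, 21.0 and 41.5 CPM in TAC, a log2 difference of 2.28 ± 0.35 (SE; edgeR adjusted p of 0.000230). Of 16 tested genes listed as kinetochore partners, 3 rose and 2 fell. Casc5, the scaffold Knl1 on which checkpoint proteins assemble, went from 1.00, 1.04 and 4.46 CPM to 21.2, 21.4 and 22.9 CPM (3.29 ± 0.39), and Kntc1, which recruits dynein to kinetochores, rose by 2.88 ± 0.51 and Spc24, a partner of Ndc80, by 1.5 ± 0.49. The 2 that fell were the inner kinetochore gene Cenpl and the outer kinetochore gene Zwint, with log2 fold changes of -0.86 ± 0.21 and -0.60 ± 0.20. Of 8 tested genes of the checkpoint and of centromeric cohesion, 3 rose: Sgol2, Mad2l1 and the cohesin-cutting enzyme Espl1, by 2.20 ± 0.36, 1.53 ± 0.33 and 2.02 ± 0.50. The only call among 15 genes of the anaphase-promoting complex and its partners was a rise in Ube2c, its ubiquitin-conjugating enzyme, by 1.86 ± 0.41, and this share too is near that of all tested genes.

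Condensins compact mitotic chromosomes, and 4 of their 7 tested subunits rose, among them Smc2 by 1.496 ± 0.25, Smc4 by 0.81 ± 0.15 and Ncaph by 2.05 ± 0.40. Of 11 tested cohesin genes, whose products hold sister chromatids together and also shape chromatin in cells that do not divide, none rose and 2 fell, in a table where 10.4% of tested genes fell. Smc1a went from 298, 276 and 255 CPM to 185, 136 and 128 CPM, and Stag2 from 108, 109 and 126 CPM to 80.4, 79.9 and 55.9 CPM, without overlap in either. Of 15 tested brakes and phosphatases 4 rose, with Gtse1 at 3.17 ± 0.63, Wee1 at 1.09 ± 0.29 and Ppp1ca at 0.62 ± 0.19. Of 20 tested centrosome and spindle assembly genes 6 rose, including Arhgap11a by 2.79 ± 0.30, Stmn1 by 2.56 ± 0.41 and Psrc1 by 2.75 ± 0.46, and Tacc1 fell, with a log2 fold change of -0.50 ± 0.13. Of 20 tested genes of the contractile ring and abscission 4 rose and 3 fell. Sept9 rose by 1.46 ± 0.21, Myh9 by 0.82 ± 0.14 and Sept11 by 0.60 ± 0.14. The formins Diap1 and Diap2 and the kinase Rock1 fell, with log2 fold changes of -0.88 ± 0.19, -0.90 ± 0.20 and -0.57 ± 0.19. Of 49 genes listed for S phase and DNA replication 31 were tested, and the others were too low to test. Among the 31, 5 were called higher and 2 lower, with a median log2 fold change of 0.28. In the mitosis set 30 and 0 of 31 were called, with a median of 2.57. Of those 31 mitosis genes, 27 passed the filter for low counts in TAC only. The difference between these lists was not tested. Pole, a replicative DNA polymerase subunit, rose by 2.44 ± 0.44, Tyms, which makes thymidylate, by 1.20 ± 0.23 and Mcm6, a subunit of the replicative helicase, by 0.87 ± 0.23. Rrm1, a subunit of ribonucleotide reductase, and Slbp, which binds histone mRNA, fell, with log2 fold changes of -0.98 ± 0.17 and -0.56 ± 0.16.

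**Figure D5:**
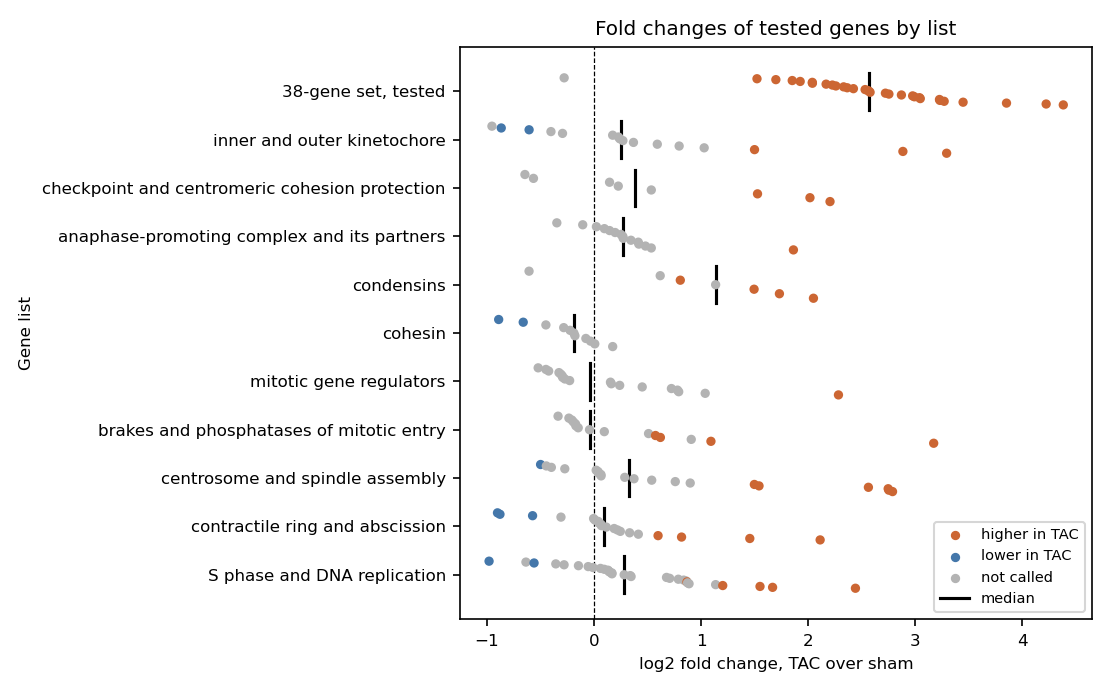
Log2 fold change (TAC over sham) of each tested gene on the horizontal axis, in rows by list, with orange for genes called higher, blue for lower and grey for not called. Black bars are medians, at 2.57 for the tested genes of the 38 and from -0.19 to 1.14 in the other lists.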

How the data were processed

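RNA of sorted Thy1+HE- heart cells was sequenced as single reads with a kit that does not mark strand, per the labels' protocols. The authors made read counts per gene in NextGENe, whose version the file headers give as 2.3.3; mm10 and Partek 6.6 stand in the submitters' processing notes. The same deposited reports give RPKM values, the read coverage signal per base and the highest depth at a base. How reads that match several places were treated is not stated there. Of the 38 genes 10 share exon bases with another GENCODE M21 gene, and Ccna2, Cdc25c and Prc1 over more than 10% of them, so reads of those stretches are uncertain.

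Counts were analysed in R 4.3.3 with edgeR 4.0.16 (filterByExpr, TMM, quasi-likelihood test, two-sided, Benjamini-Hochberg over 12612 genes, called at adjusted p under 0.05). Standard errors came from the F statistic. Ratios pool the counts of each group over TMM sizes, with 95% exact binomial intervals. In data simulated for this comparison over 12445 genes, the fit recovered 61 of 100 genes altered 2-fold and 94 of 100 altered 4-fold. These genes were drawn from all tested genes and were raised or lowered. Recovery at counts as low as those of most of the set was not measured. Members and lists were chosen with earlier results of these data known. Each gene of the set is named; from the other lists the 3 called genes with the smallest adjusted p and all that fell. Alternatives used DESeq2 1.42.0, limma 3.58.1 (voom, and log2 of RPKM plus 1 or 0.1), other scalings and filters, thinning, a block for replicate number, and removal of each library in turn. Coordinates and promoters are from RefSeq GRCm38.p6, the assembly of mm10. For 29 of 32 promoters the bases after the start were found in a GENCODE transcript of the gene, which checks their strand. Figures were drawn with matplotlib 3.10.9.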

Additional observations from a re-analysis of the deposited data

Results flagged for a closer look

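Dlg7 was looked at again because a signal appears in a measure that the comparison of counts does not use, the depth at the most covered base of each library. The reports do not give its position, so whether it is the same base in all libraries is not known. Reads of Dlg7 away from the most covered base of their library numbered 84 in the 3 TAC libraries and 2 in the 3 sham libraries, whereas the total count did not pass the test.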

How the results depend on the processing

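Over the alternatives, 20 to 36 genes of the set were called higher and none lower, beside 4.21 to 9.83% of tested genes called higher. The lowest and highest counts went with the number of genes tested: 21 were tested and 20 called after thinning to the smallest library, and 38 and 36 with no filter on low counts. The fit with no filter gave Mki67 an adjusted p of 4.25e-64, far below that of any other fit, so its p-values are not relied on and its counts are given only to show what that setting does. Leaving out 1 library gave 22 to 31 calls among the 38, beside 4.21 to 8.11% of tested genes called higher. Of 531 values of single genes under an alternative, 516 kept direction and side of the threshold, 15 lost the call and none changed sign. The losses were in Birc5, Ccnb1, Spag5 and Top2a. The 516 include 18 values of Dlg7, which was called under none. A gene too low to test under an alternative has no value there and is not counted as a loss. Of 18 alternatives, Ttk, Birc5 and Spag5 had values in 14, and Aurkb, Cit, Iqgap3 and Ndc80 in 15. Genes called higher over the whole table numbered 1579 with no filter, and 571 to 997 when 1 library was left out, with 571 without sham replicate 2 and 683 without sham replicate 3. Upper quartile scaling raised the share of higher genes among all calls from 44.4 to 52.1%, and the fit with no filter to 54.7%. The median log2 fold change of the tested members was 1.56 with limma on log2(RPKM + 1), which draws low values together. Longer CCAAT forms (CCAATCA or CCAATGA) were found in 50% of member promoters and 11.1% of all promoters, and the CHR within 100 bases before the start in 18.8% and 6.29%. The replicate numbers did not pair the libraries, with correlations of 0.08, 0.03 and -0.09 between the deviations of same-numbered libraries. With the replicate block, 30 members were called higher, as without it, and 1029 genes in all. At these depths no sham library held more than 9 counts of 28 of the 38 genes, so the sizes of their fold changes are imprecise.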
